A study of Mus musculus with 4 samples.

Results

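Snrpb, Secisbp2 and 5 long noncoding RNA genes that carry small nucleolar RNAs in their introns (Gas5, Snhg1, Snhg5, Snhg6 and Snhg12) were followed in mouse tumours and in the exosomes these tumours release. The 7 genes were taken by symbol from a table of 47069 genes, and all 7 were found. Snrpb and Secisbp2 were chosen because their counts were high in tumour and nearly or wholly absent in exosomes, so for these genes that contrast is given as a description without a test. The other 5 were chosen as known hosts of small nucleolar RNAs, with earlier results of these data known. The rule set no numeric threshold.

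There were 2 libraries of each kind. Both kinds came from Lewis lung carcinoma, an established mouse lung carcinoma line grown under the skin of C57BL/6 mice and taken 3 weeks after inoculation. Tumour libraries held RNA of the primary tumour itself. Exosome libraries held RNA from medium in which pieces of tumour had been kept without serum for 12 h, cleared by centrifugation and a 0.2 µm filter, and precipitated with ExoQuick-TC without ultracentrifugation. In both, total RNA was ligated to adaptors, amplified and cut from a gel before sequencing. The labels call the libraries replicates without naming animals, so a p-value here speaks of variation among the libraries, which may be technical, and 2 against 2 cannot give an exact permutation p under 0.333. The stroma and blood of the host animal can be part of both kinds of sample.

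Small nucleolar RNAs guide the chemical modification of ribosomal and spliceosomal RNA. Most of those in mammals are cut out of introns: the host gene is transcribed and spliced, and the small RNA survives as the trimmed remainder of the intron. Box C/D small nucleolar RNAs are recognised by a box C near the 5' end and a box D near the 3' end, which a short helix of the flanking bases brings together. Gas5 and the Snhg genes are hosts whose spliced RNAs are noncoding, and that of Gas5 is known to be short-lived in growing cells. Snrpb codes for the SmB/B' protein of the ring that binds spliceosomal small nuclear RNAs. Secisbp2 codes for the protein that binds the selenocysteine insertion element of selenoprotein messenger RNAs.

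A few sequences carry the findings that follow. They are GENCODE M21 transcript sequences (assembly GRCm38), written 5' to 3' as DNA on the strand of the host. Capitals mark box C (TGATGA) and box D (CTGA) where a search found both boxes, 45 to 110 bases apart from the start of the first to the end of the second, with at least 6 bases within 12 bases on either side that can pair. The first is an unannotated stretch of a Snrpb intron, the second the counted RNA inside Snhg6, and the others are uncounted RNAs inside Gas5, Snhg12 and Snhg5, the last of which did not give the full pattern.
Snrpb intron stretch (chr2:130172902-130172983, minus strand): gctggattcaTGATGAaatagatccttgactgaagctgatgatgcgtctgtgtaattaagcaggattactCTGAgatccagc
Snord87 in Snhg6 (chr1:9942463-9942549, minus strand): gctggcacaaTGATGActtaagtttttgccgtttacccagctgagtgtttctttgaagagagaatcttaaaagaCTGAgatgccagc
Mir5117 in Gas5 (chr1:161037356-161037439, plus strand): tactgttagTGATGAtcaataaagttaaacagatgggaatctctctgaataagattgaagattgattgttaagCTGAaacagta
Snord99 in Snhg12 (chr4:132310691-132310764, plus strand): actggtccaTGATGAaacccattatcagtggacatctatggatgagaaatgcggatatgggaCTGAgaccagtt
Snord50a in Snhg5 (chr9:88521529-88521600, minus strand): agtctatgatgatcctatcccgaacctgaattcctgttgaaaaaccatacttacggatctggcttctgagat

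The depth of the libraries bounds what can be said of the rarer genes. The exosome libraries held 305751 and 217201 counts and the tumour libraries 14543691 and 10849811, so 1 count in an exosome library stood for 3.27 or 4.60 CPM, the usual scaling of a count to its library total, against 0.0688 or 0.0922 CPM in a tumour library. Small nucleolar RNA genes made up 81.2% and 82.5% of the tumour counts and 0.925% and 0.893% of the exosome counts. Differences between groups are given on 2 scales, because the scale decides several of them: shares of library totals, and edgeR's TMM scaling, which sets the typical tested gene to no difference. Scaling to totals moved the median log2 difference (exosomes minus tumour) of the 1442 tested genes from 0.018 to 2.75. The tumour label was checked on markers: of the mesenchymal genes Vim had 153 and 81 tumour counts and Cdh2 0 and 1, and of the epithelial genes Krt18 had 11 and 4, Krt8 2 and 0, and Epcam and Cdh1 none. Markers of red blood cells summed to 268 and 483 CPM in exosomes and to 114 and 81.2 CPM in tumour. Of the 4 tested, 4 were higher in exosomes with library totals (median log2 difference 1.85), whereas 2 were lower and 0 higher with TMM (median −0.95). Over all tested genes 63.8% were called higher with library totals, and 22.1% lower and 16% higher with TMM. The part of red blood cells in the results below was not tested. In bulk libraries, fewer cells of a type and less RNA per cell cannot be told apart.

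Snrpb had most of the tumour counts assigned to protein-coding genes. It lies at chromosome 2, 130171414 to 130179403, on the minus strand (ENSMUSG00000027404). It had 146964 and 114981 counts in the tumour libraries and 16 and 14 in the exosome libraries. The groups did not overlap, and the replicates of each were close: 10351 ± 348 CPM in tumour and 58.4 ± 8.57 CPM in exosomes (SD, n = 2). The tumour share was 180 times the exosome share of library totals, or 1229 times with TMM scaling. Among 9990 protein-coding genes with a tumour count Snrpb ranked first, with 65.1% and 67.2% of the counts of such genes, and Rpl7a followed with 15759 and 11671. After those came the histone gene Hist1h4d with 1663 and 1417.

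**Figure D1:**
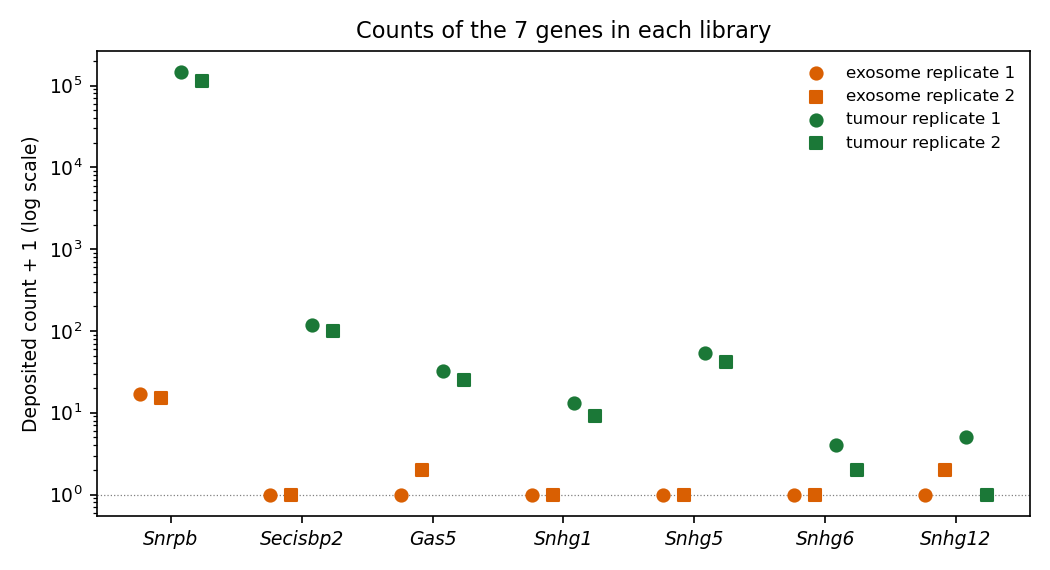
Deposited counts of each gene in each library, with 1 added so that a count of 0 can be drawn on a log scale (y axis). Orange marks exosome and green tumour libraries, circles replicate 1 and squares replicate 2. Snrpb stands at 146964 and 114981 tumour counts, whereas the other 6 genes have at most 117 counts in any library.

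No other gene of the splicing core came near that level. Of 23 Sm, LSm and small nuclear ribonucleoprotein genes in the list set up for the report, 19 had a count and 4 had enough counts to be tested. Snrpb was the 1 called lower in exosomes and 0 were higher, and Snrpb had been chosen on that contrast. Over all 1442 tested genes 22.1% were called lower and 16% higher, by edgeR's quasi-likelihood test with TMM scaling and a threshold of 0.05 on the adjusted p. Prpf8, a scaffold of the catalytic spliceosome, had 30 and 26 tumour counts against 1 and 1 in exosomes (log2 difference −1.96, SE 0.70, edgeR adjusted p = 0.0645). Snrnp200, the helicase that unwinds U4 from U6, had 18 and 16 against 4 and 1 (log2 difference 0.050, SE 0.66, edgeR adjusted p = 0.968). Eftud2 had 13 and 9 against 1 and 1. The 4 tested genes had a median of −1.29 with TMM scaling and 1.45 with library totals, where Snrnp200 was called higher (log2 difference 2.81, SE 0.86, edgeR adjusted p = 0.00394). Snrnp200 passed the filter on low counts through its exosome counts, so that call is no support for a difference. With library totals 63.8% of all tested genes were called higher.

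The Snrpb locus has 4 annotated transcripts, 2 of them of the retained-intron class, and no annotated small RNA gene lies within it. The stretch printed above lies in exon 6 of a retained-intron transcript and in no exon of the 2 transcripts outside that class. It is 82 bases long, has 64 bases from the start of box C to the end of box D, and its flanks can pair over 7 bases. A second TGATGA lies between the boxes. Snord87, an annotated box C/D RNA, has the same arrangement with 7 pairing bases. Of 21288 retained-intron transcripts (chromosome 18 left out), some over annotated small RNA genes, 89 or 0.418% held such a pattern on the sense strand. Of 399848 windows of 82 bases tiled end to end over them 4 held it. A stretch that crosses a border is missed by such windows, so their number gives no rate. The boxes alone, without the pairing bases, were in 16.7% of these transcripts and in 72.4% of 98 transcripts with a Snord symbol. With the pairing bases the share of Snord transcripts was 9.18%. An annotated entry can be too short for the search: Gm26224 in Gas5 and Gm23246 in Snhg1 gave the pattern in a host transcript, with 6 pairing bases, but not in their own entries. A blastn search of 5709 annotated small RNA transcripts gave 1 match to the Snrpb stretch at an E value of 0.001, Snord107, 79.5% identical over 39 of the 82 bases. The search was set up after the counts were seen, so the match of the pattern and these shares are descriptions of the letters. The files give no positions of reads within genes, so how many of the Snrpb counts fall on this stretch was not tested.

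The gene nearest to Snrpb over the 4 libraries was a long noncoding RNA gene. Nearness was the Euclidean distance over log2(CPM + 1) in the 4 libraries, among 28379 protein-coding and long noncoding genes. The long noncoding host 1110038B12Rik was nearest (distance 1.71), with 75708 and 51560 tumour counts against 27 and 11 in exosomes. Rpl7a, a ribosomal protein gene that hosts small nucleolar RNAs, was second at 5.34, with 5 and 3 exosome counts. A230103J11Rik was the third at 9.39, with 6033 and 4636 tumour counts against 0 and 1. In 1110038B12Rik 2 small RNA genes are annotated, Snord52 and Gm25744, and both had 0 counts in all 4 libraries. Rpl7a holds 3, of which Gm23969, not wholly in an exon, had 64018 and 49067 tumour counts and the other 2 had none. No box C/D stretch of the kind searched for was found in the transcripts of the 3 nearest genes. Only transcript sequences were searched, there as for Snrpb, so introns held by no transcript were not.

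Secisbp2 (chromosome 13, 51651697 to 51684044, plus strand, ENSMUSG00000035139) had 117 and 100 tumour counts and none in either exosome library. The tumour level was 8.63 ± 0.829 CPM (SD, n = 2). At that share of library totals the exosome libraries would have held 4.47 counts together, so the absence rests on few expected counts. Taking 3 counts over both exosome libraries as the most that a count of 0 allows, which is 5.74 CPM, the gene was at least 1.49-fold lower by library totals and at least 10.2-fold lower with TMM scaling. These limits, and all counting intervals below, cover counting error only, since amplified reads without molecular identifiers are not independent molecules.

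Among protein-coding genes with no exosome count, Secisbp2 was the third by tumour counts. Above it stood mt-Atp8 with 817 tumour counts in both libraries and Hist1h3h with 265, and just under it Hist1h3c with 175. In all, 5258 protein-coding genes had a tumour count and no exosome count. The nearest genes by the distance above were Hist1h3h (0.39), Hist1h3c (0.44) and Gm20628 (0.72), with 155 and 110, 102 and 73, and 86 and 62 tumour counts and no exosome count. Histone messenger RNAs of this kind lack a poly(A) tail, whereas Secisbp2 messenger RNA is an ordinary spliced transcript. Secisbp2 holds no annotated small RNA gene, and none of its 6 transcripts held the box C/D pattern. Their exons cover 14.3% of its span, and the rest was not searched.

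Other genes of selenoprotein synthesis were thinly covered. All 16 in the list had a count in some library and 10 had an exosome count, but only 2 were tested. One of them is Secisbp2, which was chosen on this contrast and passed the filter through its tumour counts, so no count of calls is given. Txnrd1, a selenoprotein reductase, had 8 and 2 tumour counts against 4 and 1 in exosomes, a log2 difference of 1.79 (SE 0.78, edgeR adjusted p = 0.124), which was 4.54 with library totals (SE 0.88, edgeR adjusted p = 2.13e-05). Txnrd1 passed the filter through its exosome counts, so neither value is support for a difference. With library totals 63.8% of all tested genes were called higher. Gpx1, a glutathione peroxidase, had 7 and 4 against 0 and 2. The list as a whole had 167 and 123 tumour counts, mostly Secisbp2, and 11 and 8 exosome counts, where Secisbp2 gave none.

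The host genes themselves had few counts in tumour, and Snhg6 and Snhg12 were near the detection limit. Summed over the 5 hosts there were 103 and 74 tumour counts, so that Snrpb alone had 1427 and 1554 times as many. Snhg5 (chromosome 9, 88521050 to 88522929, minus strand, ENSMUSG00000097195) had 53 and 41. Gas5 (chromosome 1, 161034422 to 161038539, plus strand, ENSMUSG00000053332) had 31 and 24. Snhg1 (chromosome 19, 8723475 to 8726443, plus strand, ENSMUSG00000108414) had 12 and 8, and the other 2 had fewer still. Snhg6 (chromosome 1, 9941959 to 9944118, minus strand, ENSMUSG00000098234) had 3 and 1. Snhg12 (chromosome 4, 132308623 to 132311024, plus strand, ENSMUSG00000086290) had 4 and 0. In exosomes the only counts of any host were 1 of Gas5 and 1 of Snhg12, both in replicate 2.

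Per length, the order of tumour levels depended on which length was used. The authors' FPKM, which divide a count by gene length and library total, put Secisbp2 (1.36 and 1.56) above Snhg5 (0.711 and 0.738) and Gas5 (0.182 and 0.189). The length behind these FPKM, recovered from count, FPKM and library total, was 11685 bases for Gas5, 11131 for Snhg1, 5904 for Secisbp2 and 3152 for Snrpb, each equal to the summed length of all distinct annotated exons, overlaps included. The bases covered by any exon are fewer: 3760, 2969, 4626 and 1976. For Gas5, whose 25 transcripts include 20 with retained introns, the authors' length was 3.11 times the covered bases, and for Snhg1 it was 3.75 times. As CPM per kilobase of covered exon, Snhg5 had 2.11 and 2.18, Secisbp2 1.74 and 1.99, Gas5 0.567 and 0.588, and Snhg1 0.278 and 0.248. Snhg5 then stood above Secisbp2, the reverse of the FPKM order, with no overlap between their tumour libraries in either case. However, the authors' length for Snhg5, 5123 bases, differed from its summed exons here, 4543 bases, while its covered bases were 1730. For Snhg12 the lengths were 3288 and 6674. The exons behind the counts of Snhg5 and Snhg12 may thus differ from those used here, so their order by covered exon is uncertain. Snhg6 (0.180 and 0.0804) and Snhg12 (0.115 and 0) overlapped each other and lay under Snhg1. Snrpb, at 5114 and 5363, was far above all of them on either length.

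Whether the hosts were rarer in exosomes could not be settled at this depth on library totals. At the tumour share, both exosome libraries together would have held 1.94 counts of Snhg5, 1.13 of Gas5, 0.412 of Snhg1 and 0.0824 each of Snhg6 and Snhg12. All 5 lie under the limit of 3 counts, and for the 5 together 3.65 counts were expected and 2 observed. Gas5, with 1 exosome count, had 0.883 times its tumour share, with an exact 95% counting interval from 0.0220 to 5.13. Snhg12, also with 1 count, had 12.1 times its tumour share, from 0.247 to 123. For Snhg1, Snhg5 and Snhg6, with no exosome count, no fold can be given on this scale.

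**Figure D2:**
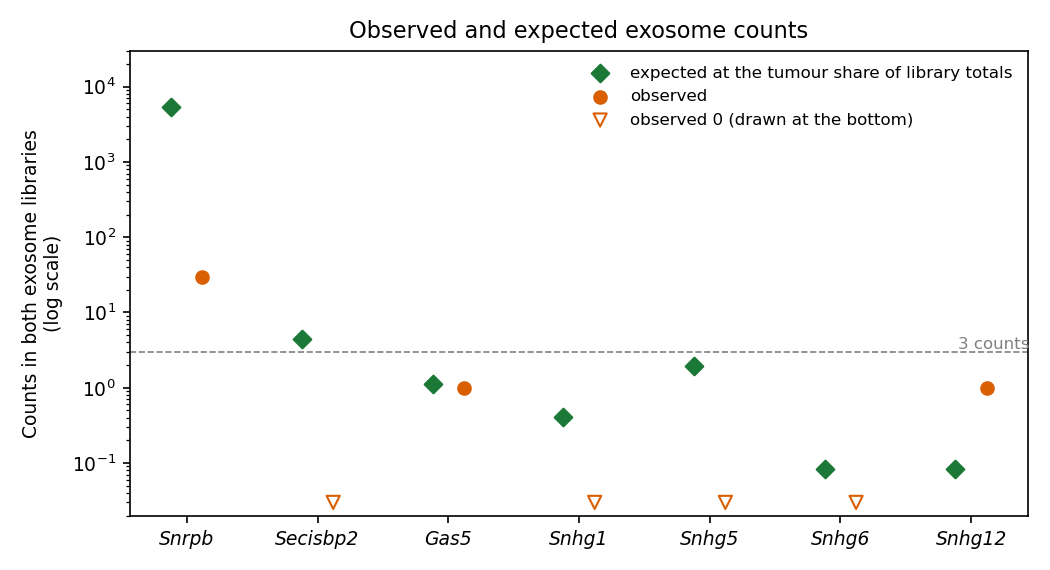
Counts of each gene in both exosome libraries together (y axis, log scale): green diamonds are the number expected at the gene's tumour share of library totals, orange circles the number observed, and open triangles an observed 0, drawn at the bottom. The dashed line marks 3 counts. Snrpb had 30 counts where 5394 were expected, Secisbp2 had 0 where 4.47 were expected, and the 5 hosts had fewer than 3 expected.

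With TMM scaling 2 of the hosts were called lower. Of the 7 genes 4 passed the filter on low counts, Snrpb, Secisbp2, Gas5 and Snhg5. Snrpb would have passed on the counts of either group, but was chosen on this contrast. Secisbp2, Gas5 and Snhg5 passed through their tumour counts. Neither their calls nor the number called is therefore support for a difference. The share of all tested genes called lower was, as given above, 22.1%. Snhg5, with no exosome count, could only come out lower, so its call (edgeR adjusted p = 0.00400) is no support for a difference. The limit of 3 counts, apart from that fit, put Snhg5 at least 4.41-fold lower, and the exact 95% counting interval at least 3.52-fold lower. Gas5 had a log2 difference of −2.88 (SE 0.94, edgeR adjusted p = 0.0451). With library totals, where 11.5% of genes were called lower and 63.8% higher, neither was called (edgeR adjusted p = 0.0750 for Snhg5, and 0.913 for Gas5 at a log2 difference of −0.18). The Gas5 call was also lost without exosome replicate 1, which holds no Gas5 count (−1.77, edgeR adjusted p = 0.269). Snhg1, Snhg6 and Snhg12 were not tested.

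The wider set of long noncoding hosts shows how unevenly such genes were counted. The list held 19, of which 17 had a count, 8 had an exosome count and 4 were tested, with 3 lower and 0 higher by TMM (22.1% and 16% over all tested genes) and a median log2 difference of −5.32 beside 0.018. Gas5 and Snhg5 passed the filter through their tumour counts, so neither the count nor the median is support for a difference. The 3 were Gas5, Snhg5 and 1110038B12Rik, which fell by 8.88 on the log2 scale (SE 0.30, edgeR adjusted p = 1.77e-07). Dancr, a host with 157 and 121 tumour counts, had 24 and 13 in exosomes and a log2 difference of −0.095 (SE 0.27, edgeR adjusted p = 0.862). On library totals 1 of the 4 was lower, 1110038B12Rik, and 1 higher, Dancr at 2.68. Of 40 protein-coding hosts, all with a count, 29 were tested, with 5 lower and 2 higher by TMM (median −0.44), and 1 lower and 21 higher with library totals (median 2.33). Over all tested genes, library totals called 11.5% lower and 63.8% higher, with a median of 2.75. The difference between the 2 lists was not tested. The protein-coding hosts higher by TMM were Eef2, a translation elongation factor gene, at 1.01 (SE 0.28, edgeR adjusted p = 0.0230), and Rpsa, a ribosomal protein gene, at 1.64 (SE 0.47, edgeR adjusted p = 0.0288). Rpsa passed the filter through its exosome counts, so its call is no support for a difference. The lowest of the 29 was Rpl7a at −8.91 (SE 0.24, edgeR adjusted p = 8.89e-08), and Rack1, a ribosome-bound scaffold protein gene, had −1.62 with TMM and 1.16 with library totals.

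The proteins that build small nucleolar ribonucleoproteins were near the detection limit. All 8 core genes had a count, 2 were tested and 0 were called in either direction by edgeR, nor did either pass an unadjusted p of 0.05 (0.0557 for Nop56 and 0.577 for Nop58). Nop56, a box C/D core protein gene that is itself a host, had 24 and 26 tumour counts against 1 and 1 (log2 difference −1.80, SE 0.79, edgeR adjusted p = 0.125). Nop58, its partner, had 14 and 7 against 1 and 1 (−0.55, SE 0.74, edgeR adjusted p = 0.749). Fbl, the methyltransferase of the same particle, had 8 and 3 against 0 and 1. Genes of nonsense-mediated decay, the pathway known to degrade Gas5 and other host RNAs, all had counts (10 of 10), but none reached the filter. Smg1, a kinase of that pathway, had the most, with 13 and 12 in tumour and 3 and 0 in exosomes.

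The small RNAs inside the hosts were compared next, and here the files divided sharply. GENCODE M21 places 26 small RNA genes wholly within the 5 hosts, on the host's strand: 10 in Gas5, 8 in Snhg1, 5 in Snhg12, 2 in Snhg5 and 1 in Snhg6. Snord80 in Gas5 and Snora16a in Snhg12 each have 2 overlapping entries, so these are annotated genes and not all distinct RNAs. The 25 in Gas5, Snhg1, Snhg5 and Snhg12 had a count of 0 in all 4 libraries, although small nucleolar RNA made up most of the tumour counts. The RNA in Snhg6, Snord87, had 45945 and 32508 tumour counts and 7 and 6 in exosomes. Its tumour level was 3078 ± 115 CPM and its exosome level 25.3 ± 3.34 CPM (SD, n = 2), so the groups did not overlap. Its log2 difference was −9.72 with TMM (SE 0.23, edgeR adjusted p = 7.80e-08) and −6.95 with library totals (SE 0.34, edgeR adjusted p = 7.84e-24). Over all tested genes 22.1% were called lower with TMM and 11.5% with library totals.

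Snord87 and the host around it differed by orders of magnitude in the same libraries. Per library, Snord87 had 15315 and 32508 times the count of Snhg6 in tumour, and in exosomes it had 13 counts where Snhg6 had none. The share of Snord87 fell 124-fold from tumour to exosomes by library totals, with an exact 95% counting interval from 72.7 to 233. Small nucleolar RNA genes as a class fell too, from 81.2% and 82.5% of tumour counts to 0.925% and 0.893% of exosome counts. A large fall was therefore not particular to Snord87. No fold could be given for Snhg6.

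Position within annotated exons separated the counted from the uncounted RNA. All 25 uncounted small RNA genes lie wholly within an exon of at least 1 transcript of their host. Exons of some transcript cover 91.3% of the Gas5 span, 92.0% of Snhg5 and the whole of Snhg1 and Snhg12. Snord87 lies in no exon of Snhg6, where exons cover 53.1% of the span. Snord50a, printed above, and its neighbour Snord50b lie in exons of Snhg5 and were at 0.

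**Figure D3:**
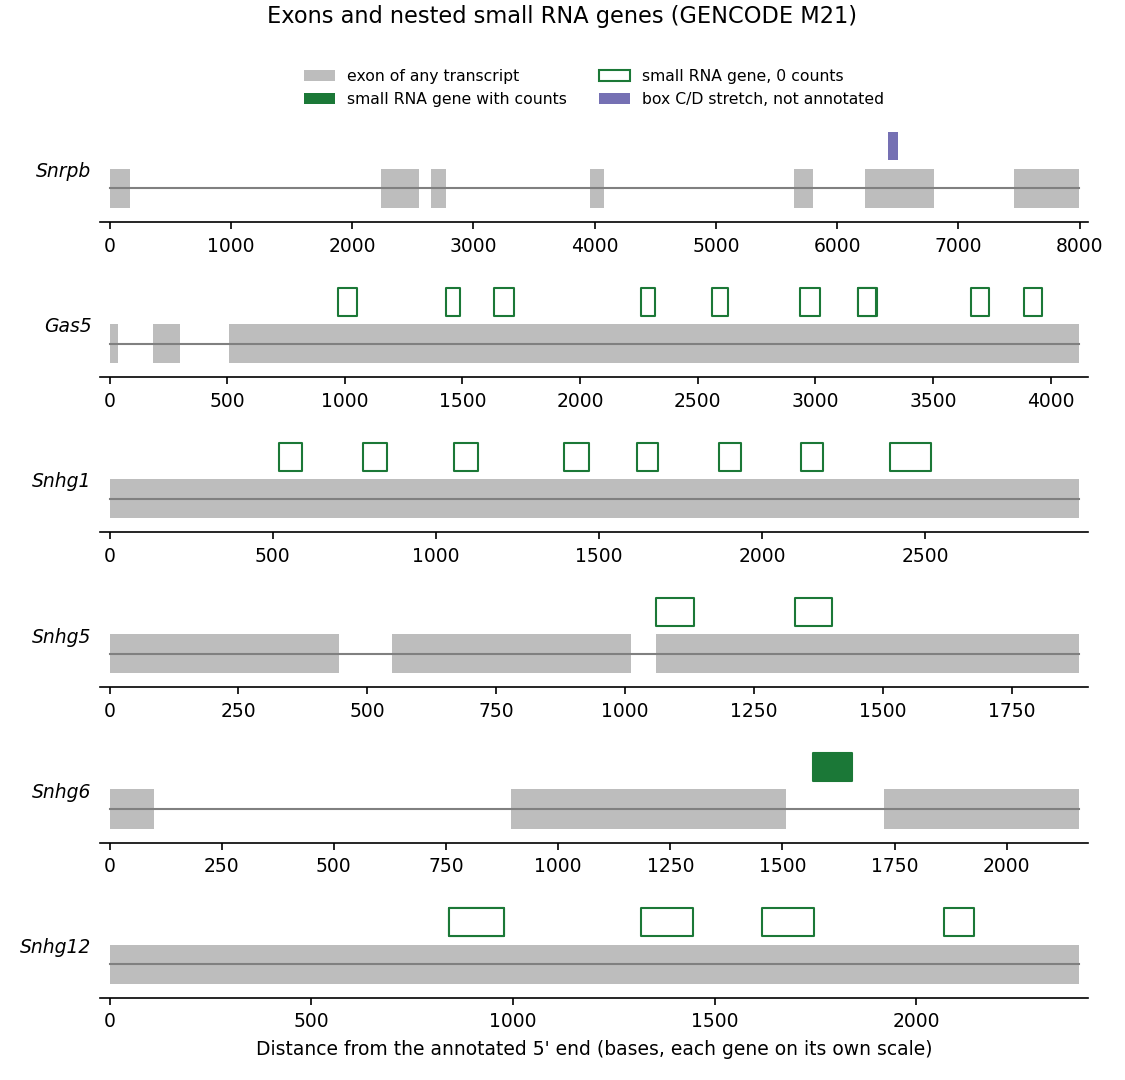
Maps of 6 of the genes, each on its own scale, as distance in bases from the annotated 5' end. Grey blocks are bases in an exon of any transcript, green outlines small RNA genes with 0 counts, the filled green block Snord87 with 78453 tumour counts in both libraries, and the purple block the unannotated box C/D stretch in Snrpb. Every outlined gene lies above an exon block, and Snord87 lies above a gap.

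Over the whole table the share with a count differed by position and by whether the annotated exons matched the authors' lengths. Among genes with a small nucleolar or Cajal body RNA symbol, those in no exon of a larger gene had a tumour count in 72 of 82 cases (87.8%). Of those lying wholly in an exon on the same strand, in a gene whose summed exon length in GENCODE M21 equals the length behind the authors' FPKM within 0.5%, 0 of 28 had a count in any of the 4 libraries. Where that length differed, 9 of 25 had a tumour count. Gas5 and Snhg1 are of the first kind, whereas Snhg5 and Snhg12, whose 7 small RNA genes were at 0 as well, are of the second. Over all small nucleolar and Cajal body RNA genes, named or not, the numbers were 0 of 68 with equal length, 22 of 56 with a differing length, and 244 of 1385 in no exon, many of which are unnamed predictions. Without the RNAs nested in the 7 genes they were 0 of 50, 22 of 49 and 243 of 1384. On the opposite strand 0 of 6 with equal length and 0 of 1 with a differing length had a count. Where the larger gene had no count itself, the numbers were 0 of 5 on the same strand and 0 of 7 on the opposite strand. These splits were made after the values were seen and are descriptions. How the authors' counting treated reads that lie on more than 1 gene, or used strand, is not given in the sources used here. Absence of the RNAs with a count of 0 inside Gas5, Snhg1, Snhg5 and Snhg12 was therefore not tested.

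**Figure D4:**
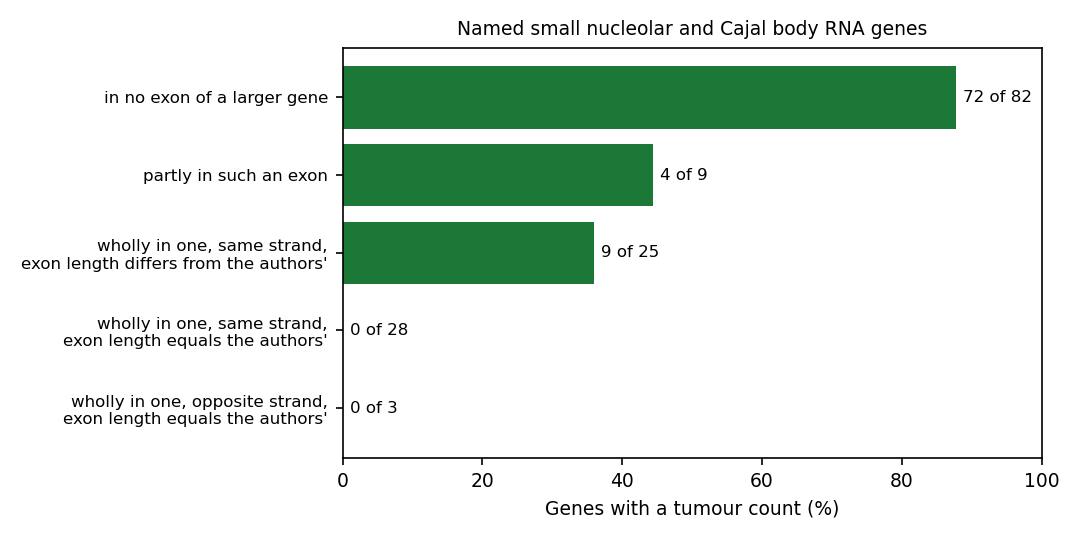
Percentage (x axis) of genes with a small nucleolar or Cajal body RNA symbol that have a tumour count, by position relative to exons of larger genes. "Exon length equals the authors'" means that the summed exon length of the larger gene matches the length behind the deposited FPKM within 0.5%. The bars fall from 72 of 82 genes in no exon to 0 of 28 wholly in a matching exon.

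The other long noncoding hosts were mixed. Snhg14 alone holds 207 nested genes outside its exons, of which 36 had a count, 60 tumour counts in all, so most of its RNAs outside exons had none. Leaving out Snhg14, the 13 hosts other than the 5 described here held 13 small RNA genes wholly in one of their exons, of which 0 had a count, and 9 outside their exons, of which 6 had a count. The 3 without one were 2 in Snhg3 and 1 in Snhg11. The RNAs of 2410006H16Rik had the most: its 3 nested RNAs, all outside its exons, summed to 3181852 tumour counts, while the host had 3 and 1. Snhg9 had 3 and 2 tumour counts and its 1 nested RNA, outside its exons, had 85 in both libraries. Among the hosts other than Snhg14, only 1110038B12Rik and Dancr themselves had more than 100 counts in each tumour library, and the nested RNAs of both, 2 and 1, were at 0.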

How the data were processed

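Gene-level columns of counts and of FPKM, 1 of each per library, were used for 4 libraries. Deposited counts are whole numbers without normalization, per the file headers and values. The deposited FPKM divide each count by a gene length and the library total, as their values show. In 74.1% of 14381 annotated genes with a count, that length equalled the summed distinct exons of GENCODE M21 within 0.5%. The submitters' processing notes name TopHat2 2.0.9, Cufflinks 2.1.1, Cuffdiff and GRCm38.p4. For the counting tool, annotation, strand setting and treatment of shared reads, the entry is: not given in the sources used here.

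Counts were tested with edgeR 4.0.16 (R 4.3.3) by the quasi-likelihood test, with the filterByExpr filter (minimum count 10, minimum total 15), TMM scaling and no covariate. P-values were adjusted by Benjamini-Hochberg over 1442 genes. The fit was first run on simulated counts. Those lacked the difference in small nucleolar RNA share between the groups, so that run cannot decide between the scalings. The SE is the absolute difference divided by the square root of F. Replicates of a group differed beyond sampling noise (chi-square 18.7 and 16.5 times its degrees of freedom). The 7 genes and all lists were chosen with earlier results of these data known. Named genes were the 7, small RNA genes inside them, the 3 nearest genes of members with at least 100 tumour counts, and up to 4 members of each list with most counts. Some others (Hist1h4d, mt-Atp8, 2410006H16Rik, Snhg9, Snhg3, Snhg11, Rpsa), the box C/D search and the splits by exon were chosen after values were seen. Matches to annotated small RNAs were searched with blastn 2.17.0. Alternatives were DESeq2 1.42.0, limma 3.58.1 on log2 FPKM, other scalings and filters, a replicate block and each library left out.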

Additional observations from a re-analysis of the deposited data

How the results depend on the processing

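The calls over all genes depended on scaling. Against 230 higher and 318 lower genes with TMM, library totals gave 920 higher and 166 lower, limma on log2(FPKM + 1) gave 830 and 171, and limma on log2(FPKM + 0.1) gave 977 and 161. With no filter on low counts 610 were lower among 14421 genes then tested, against 1442 in the main fit. Leaving out 1 library at a time gave 82 to 189 higher and 190 to 319 lower. Without tumour replicate 1, 108 were higher and 190 lower among 394 genes then tested, and without tumour replicate 2, 82 and 197 among 397. The lone library left in a group is assumed to vary like the other group. Of the long noncoding hosts 3 were lower with TMM and 1 with library totals. With no filter 5 were lower, where 610 of all 14421 genes were lower and the median log2 difference was −1.86.

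The labels number the replicates in both groups but do not say that a number is shared, and same-numbered deviations over 1442 genes had a correlation of −0.034. With the replicate block 244 genes were higher, 345 lower and 3 of the hosts lower.

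Snord87 stayed below 0 and called in 12 of 12 alternatives (−11.96 to −6.93). Snrpb stayed below 0 in 12 of 12 (−12.58 to −7.40), but it was chosen on this contrast, so that is no support for its direction. Secisbp2, Gas5 and Snhg5 could not be fitted without a tumour library, since they then failed the filter. In the 10 alternatives left all 3 stayed below 0, which for Secisbp2 and Snhg5 was fixed in advance, since neither had an exosome count. Calls were lost in 6 for Gas5 and in 1 for Snhg5, library totals. The Gas5 value ranged from −7.31 to −0.0061, with edgeR adjusted p = 0.0840 when at least 10 counts in at least 2 libraries were required and DESeq2 adjusted p = 0.108. Counting nested small RNA genes on either strand left 1 with a count. On library totals, exosome depth put the expected counts of all 5 hosts under 3.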
